A study of Mus musculus with 6 samples.

Results

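Semaphorins, ephrins, Slits and netrins are ligands that steer growing axons and blood vessels, and their receptors were examined with them in fetal mouse lung with and without Hopx. The set held 79 genes of the 18193 named on the array, represented by 170 probe sets. They were taken by symbol from probe sets annotated to a single gene (those beginning with Sema, Plxn, Slit, Robo, Ntn or Unc5, the numbered Epha, Ephb, Efna and Efnb genes, and Nrp1, Nrp2 and Dcc), with the probe set of highest mean over the 6 lungs standing for each gene. Of the 79, 68 belong to the guidance families themselves. The other 11 were taken in by the first letters of their symbols and are described apart, some of them being related to these families: Slitrk1 to Slitrk6, Ntng1, Ntng2, Unc5cl, Unc50 and the antisense transcript Plxna4os1. Ephb2 is not analysed here.

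The samples were whole lungs dissected from embryos at E16.5 (embryonic day) on a mixed strain background. Hopx encodes a small homeodomain-like protein found in type I alveolar cells, the flat cells of gas exchange, and in other tissues. One group of 3 lungs came from Hopx -/- embryos, called Hopx-null here, and the other group of 3 from Hopx +/+ embryos, called wild-type. The labels call the samples biological replicates without naming litters or sex and do not describe the deleted part of Hopx, and both groups are germline genotypes, so no Cre or transgene limits the deletion to a cell type as far as the labels say.

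Semaphorins act through plexins. Class 3 semaphorins are secreted and use neuropilins as co-receptors, while most other vertebrate classes are bound to the membrane. Ephrins are membrane-bound ligands of the Eph receptor tyrosine kinases, the A type held by a lipid anchor and the B type by a transmembrane segment. Slits are secreted ligands of Robo receptors, and netrins bind Dcc and the Unc5 receptors. In the lung these systems are known from the branching of airways, the patterning of blood vessels and the ingrowth of nerves.

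All values are log2 expression values as the authors deposited them, so a difference of 1 is a 2-fold change. Values in parentheses or lists are given in the order of replicates 1, 2 and 3. The arrays had a lower quartile of 4.28, a median of 6.69 and an upper quartile of 9.03, and values under the lower quartile lie where signal is close to background. On this scale 10 of the 79 genes had a mean under the lower quartile, 52 had a mean above the median and 29 above the upper quartile. A whole-lung value cannot tell fewer cells of a type from less RNA per cell.

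Hopx itself, the check of the labels, read 4.59, 4.59 and 4.96 in Hopx-null lungs and 10.96, 10.59 and 10.41 in wild-type lungs at its s_at probe set (log2 difference -5.94, SE 0.17, limma with Benjamini-Hochberg, adjusted p = 0.000375). Its a_at probe set read 10.64, 10.35 and 10.47 in Hopx-null and 12.50, 12.44 and 12.26 in wild-type lungs (-1.91, adjusted p = 0.0228 in limma), so a signal above the upper quartile remained there in Hopx-null lungs. The sources used here do not say which of these probe sets lies in the deleted part. The lung identity was checked with marker lists: 5 of 5 measured type II cell genes, 6 of 6 type I cell genes, 6 of 6 endothelial genes and 5 of 5 smooth muscle genes were above the array median in every lung. Of neighbouring tissues, 0 of 4 thymus markers but 3 of 5 heart markers lay above the median in every lung, the heart markers with means of 8.99 to 9.95. Some lists differed between lungs of 1 genotype. The mean of 3 Y-linked genes was 9.24 and 9.12 in wild-type replicates 2 and 3 and 2.47 to 2.57 in the other 4 lungs, and the mean of 5 cartilage markers was 8.13 and 8.39 in wild-type replicates 2 and 3, 5.42 in wild-type replicate 1 and 5.51 to 6.88 in Hopx-null lungs. The means of the type I markers were 11.80 in wild-type replicate 3 and 12.30 to 12.43 in the other lungs. Hopx-null replicate 3 had the largest difference between 3' and 5' control probe sets of actin, 1.51 against 1.15 to 1.25 in the others.

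No guidance gene passed the test between the genotypes. Of the 79 genes, 0 had an adjusted p under 0.05 in limma with Benjamini-Hochberg adjustment over 45037 probe sets, where 0.00444% of probe sets and 0.0055% of genes were called, all of them Hopx. The smallest adjusted p among the guidance genes was 0.878. Without adjustment, 4 of them had a p under 0.05, 5.06%, against 4.54% of all genes: Efna2, Efna4 and Unc5cl were higher in Hopx-null lungs, as were 2.9% of all genes, and Epha10 was lower, as were 1.64%. The genotypes did not overlap at 11 of the 79 genes, 13.9%, against 10.5% of all genes, with 6 of the 11 above wild-type in Hopx-null lungs (6.21% of all genes) and 5 below (4.31%). These shares lie near those of all genes.

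The differences were small and leaned to higher values in Hopx-null lungs. They ranged from -0.40 for Robo2 to 0.73 for Sema4f with a median of 0.08, against a median of 0.01 over all genes. Positive differences were found for 52 of 79 genes, 65.8%, against 52.2% of all genes, and for 48 of the 68 members of the families proper. Among the members with a mean above the array median it was 39 of 52, or 75%, against 54.9% of all genes that bright. The size of the lean moved with single lungs and with the probe sets chosen. The median was 0.05 without wild-type replicate 3, 0.04 when all probe sets of a gene were averaged, and 0.04 with Y-linked expression as a covariate. Y-linked signal was high in wild-type replicates 2 and 3 only. Here and below, that covariate therefore in effect sets the Hopx-null lungs against wild-type replicate 1 alone.

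**Figure D1:**
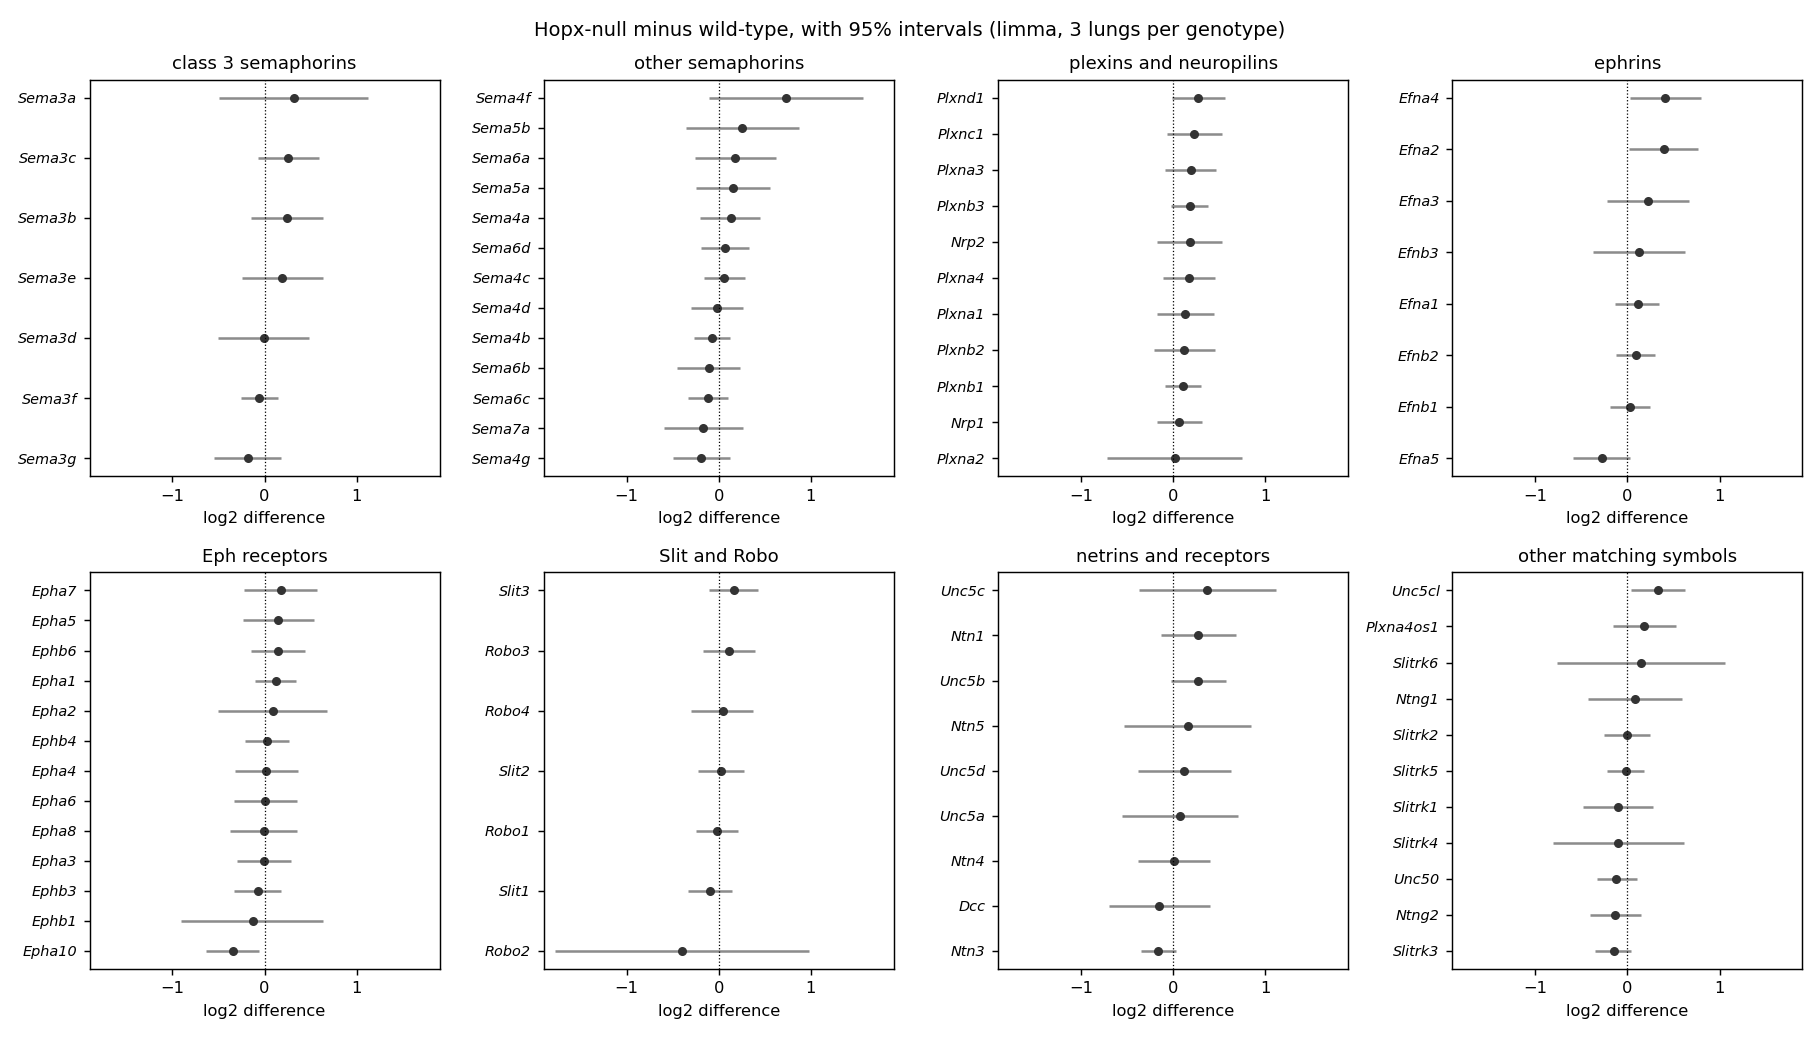
Log2 difference (Hopx-null minus wild-type, horizontal axis) of each of the 79 genes in 8 groups by role, with points for the estimate and lines for the 95% interval from limma over 3 lungs per genotype. Most intervals cross 0, all 11 plexin and neuropilin points lie to the right of it, and the widest interval belongs to Robo2 (-1.78 to 0.98).

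Class 3 semaphorins, the secreted ligands, had 4 positive and 3 negative differences among 7 genes, with a median of 0.19. The direction turned with Y-linked expression as a covariate, to 3 positive and 4 negative with a median of -0.04, and the median was 0.03 when wild-type replicate 3 was left out and 0.05 when Hopx-null replicate 2 was. Sema3a, which repels axons and acts on endothelial cells through neuropilin 1, read 10.36, 10.42 and 10.36 in Hopx-null lungs and 10.57, 10.40 and 9.21 in wild-type lungs. Wild-type replicate 3 alone was low, 1.14 below the next lung, and the other 5 lungs lay within a narrow band. The log2 difference of Sema3a was accordingly 0.32 (95% interval -0.49 to 1.12, limma with Benjamini-Hochberg, adjusted p = 0.9) and became -0.11 without wild-type replicate 3. The same lung was lowest at all 3 probe sets of Sema3a, at 7.29 against 8.52 to 8.88 and at 6.72 against 7.99 to 8.41 for the other 2. The mean of the type I cell markers was also lowest in that lung, at 11.80 against 12.30 to 12.43, and its part in the Sema3a value was not tested.

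Sema3c, a ligand with roles in the outflow tract of the heart and in vessels, read 11.68, 11.89 and 11.76 in Hopx-null and 11.50, 11.76 and 11.28 in wild-type lungs, a difference of 0.26 (SE 0.14), and 0.15 without wild-type replicate 3. The groups overlapped, because wild-type replicate 2 lay within the Hopx-null range. Sema3e, the ligand of plexin D1 in vessel patterning, read 10.28, 10.73 and 10.34 against 10.38, 10.45 and 9.93, a difference of 0.19 (SE 0.18) that was 0.03 without wild-type replicate 3, 0.05 without Hopx-null replicate 2 and 0.06 with the Y-linked covariate. Wild-type replicate 3 was the lowest lung for Sema3e at all 4 of its probe sets, as it was for Sema3a at 3 of 3 and for Sema3b at 3 of 3. Sema3f, which signals through neuropilin 2, read 8.49, 8.50 and 8.61 against 8.58, 8.53 and 8.66, a difference of -0.06 (95% interval -0.26 to 0.15), with negative differences at all 3 of its probe sets. Among the remaining class 3 genes, Sema3b differed by 0.24, Sema3d by -0.01 and Sema3g by -0.18.

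The other semaphorins, mostly bound to the membrane, had 7 positive and 6 negative differences among 13 genes, with a median of 0.06. It turned to -0.04 (6 positive, 7 negative) with the Y-linked covariate and to -0.01 (5 positive, 8 negative) without Hopx-null replicate 2, and was 0.01 without wild-type replicate 3. Sema4f, a class 4 semaphorin of neurons and glia, gave the widest difference of all 79 genes. It read 10.67, 10.80 and 10.56 in Hopx-null lungs and 10.20, 10.55 and 9.09 in wild-type lungs, 0.73 higher in Hopx-null lungs (1.66-fold, 95% interval -0.11 to 1.56, limma with Benjamini-Hochberg, adjusted p = 0.878). The genotypes did not overlap, but Hopx-null replicate 3 and wild-type replicate 2 were nearly equal, and the mean of the wild-type group was pulled down by replicate 3, which lay 1.10 below the next lung. Without that lung the difference of Sema4f was 0.30, and 0.47 with the Y-linked covariate. Its other probe set gave 0.76, with 7.07 in wild-type replicate 3 and 8.65 to 9.02 in the other 5 lungs. The chosen Sema4f probe set has the suffix x_at, which marks probes that can also match other transcripts. At 9.09 and 7.07, wild-type replicate 3 was low for both probe sets of Sema4f in the way it was for Sema3a.

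Sema5a, a transmembrane semaphorin with thrombospondin repeats, read 9.65, 9.39 and 9.86 against 9.72, 9.49 and 9.22, a difference of 0.15 (SE 0.17). Its relative Sema5b read 7.09, 6.72 and 6.93 against 6.96, 6.97 and 6.06, where wild-type replicate 3 again stood alone and the difference of 0.25 (SE 0.26) became -0.05 without it. Sema6a, a ligand of A-type plexins, read 9.52, 9.27 and 9.26 against 9.21, 9.50 and 8.80, a difference of 0.18 (SE 0.18). For these 3 genes the genotypes overlapped. Without wild-type replicate 3 the differences of Sema5a and Sema6a were 0.03 and -0.003, and with the Y-linked covariate that of Sema5a was -0.09. Sema7a, which is held by a lipid anchor and binds integrins as well as plexin C1, read 10.55, 10.53 and 10.91 against 10.96, 10.49 and 11.02, a difference of -0.17 (SE 0.18). It was highest in replicate 3 of both genotypes and in wild-type replicate 1, so its values did not divide by genotype. Sema4b was the only other semaphorin without overlap, at 10.46, 10.41 and 10.46 against 10.49, 10.47 and 10.59, and it differed by -0.07.

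Plexins and neuropilins, the semaphorin receptors, had positive differences at 11 of 11 genes with a median of 0.17, and none passed the test. Centring the arrays on their medians left 10 of 11, Plxna2 being the exception, and averaging all probe sets of a gene also left 10. With Y-linked expression as a covariate 9 of 11 were positive with a median of 0.10, and 9 of 11 without wild-type replicate 3, with a median of 0.14. Plxnd1, the plexin of endothelial cells that receives Sema3e, read 8.76, 8.69 and 8.42 in Hopx-null and 8.40, 8.42 and 8.23 in wild-type lungs, 0.27 higher in Hopx-null lungs (1.21-fold, 95% interval -0.01 to 0.56, limma with Benjamini-Hochberg, adjusted p = 0.878). Its genotypes did not overlap, with Hopx-null replicate 3 and wild-type replicate 2 both at 8.42 after rounding. The means of 6 endothelial markers were 11.11, 11.04 and 10.94 in Hopx-null and 10.99, 10.98 and 10.86 in wild-type lungs, and their part in the Plxnd1 values was not tested.

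Plxnc1, the receptor of Sema7a, read 9.07, 8.82 and 8.76 against 8.78, 8.70 and 8.48 at the chosen probe set, a difference of 0.23 (SE 0.13) with a slight overlap. It was 0.14 if either Hopx-null replicate 1 or wild-type replicate 3 was left out and 0.10 with the Y-linked covariate. All 6 probe sets of Plxnc1 gave positive differences, from 0.11 to 0.53. The probe set with 0.53, pointed out here after its values were seen, read 8.49, 8.41 and 8.60 in Hopx-null and 7.87, 8.11 and 7.94 in wild-type lungs. No lung of Hopx-null overlapped wild-type at that probe set, and its unadjusted p of 0.0015 was the smallest of the 170 probe sets of guidance genes, with an adjusted p of 0.878 in limma. Over those 170 probe sets 8 had an unadjusted p under 0.05, 4.71% against 4.77% of all probe sets, and 17 did not overlap, 10% against 10.1%.

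Nrp1, the co-receptor shared by Sema3a and vascular endothelial growth factor, read 12.79, 12.80 and 12.78 against 12.84, 12.79 and 12.55, a difference of 0.06 (95% interval -0.18 to 0.31). Only wild-type replicate 3 stood below the rest, and the difference was -0.03 without it. The 4 probe sets of Nrp1 did not point one way, with differences from -0.76 to 0.28. Nrp2, its relative in lymphatic vessels and nerves, read 11.57, 11.54 and 11.39 against 11.42, 11.51 and 11.01, a difference of 0.18 (SE 0.15), and gave positive differences at all 4 of its probe sets, from 0.18 to 0.41. At each of those 4 probe sets wild-type replicate 3 was the lowest lung, and without it the difference at the chosen one was 0.03 (0.07 with the Y-linked covariate).

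Plxna2, a receptor of semaphorins in neurons and the heart, varied between lungs without regard to genotype. It read 9.99, 9.97 and 10.69 in Hopx-null and 10.07, 9.74 and 10.79 in wild-type lungs, high in replicate 3 of each genotype, and its difference was 0.02 (95% interval -0.72 to 0.75). The same lungs were the 2 highest at all 4 probe sets of Plxna2, for example at 8.62 and 8.90 against 7.85 to 8.24. Plxnb2, the broadly expressed receptor of class 4 semaphorins, read 10.56, 10.66 and 10.67 against 10.72, 10.57 and 10.23, a difference of 0.12 (SE 0.14) that was -0.02 without wild-type replicate 3. Plxnb1 read 10.05, 10.07 and 10.16 against 10.04, 9.97 and 9.96, and Plxnb3 read 6.01, 6.17 and 6.04 against 5.86, 5.90 and 5.91. The genotypes did not overlap for either, with differences of 0.11 and 0.18. Plxnb3 and Plxna3 lie on the X chromosome, and Plxna3 read 6.07, 6.23 and 6.02 against 5.72, 6.05 and 5.97. Only wild-type replicates 2 and 3 had high Y-linked signal, and the part of sex in the values of these genes was not tested. Plxna1, Plxna3 and Plxna4 differed by 0.13, 0.19 and 0.17.

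**Figure D2:**
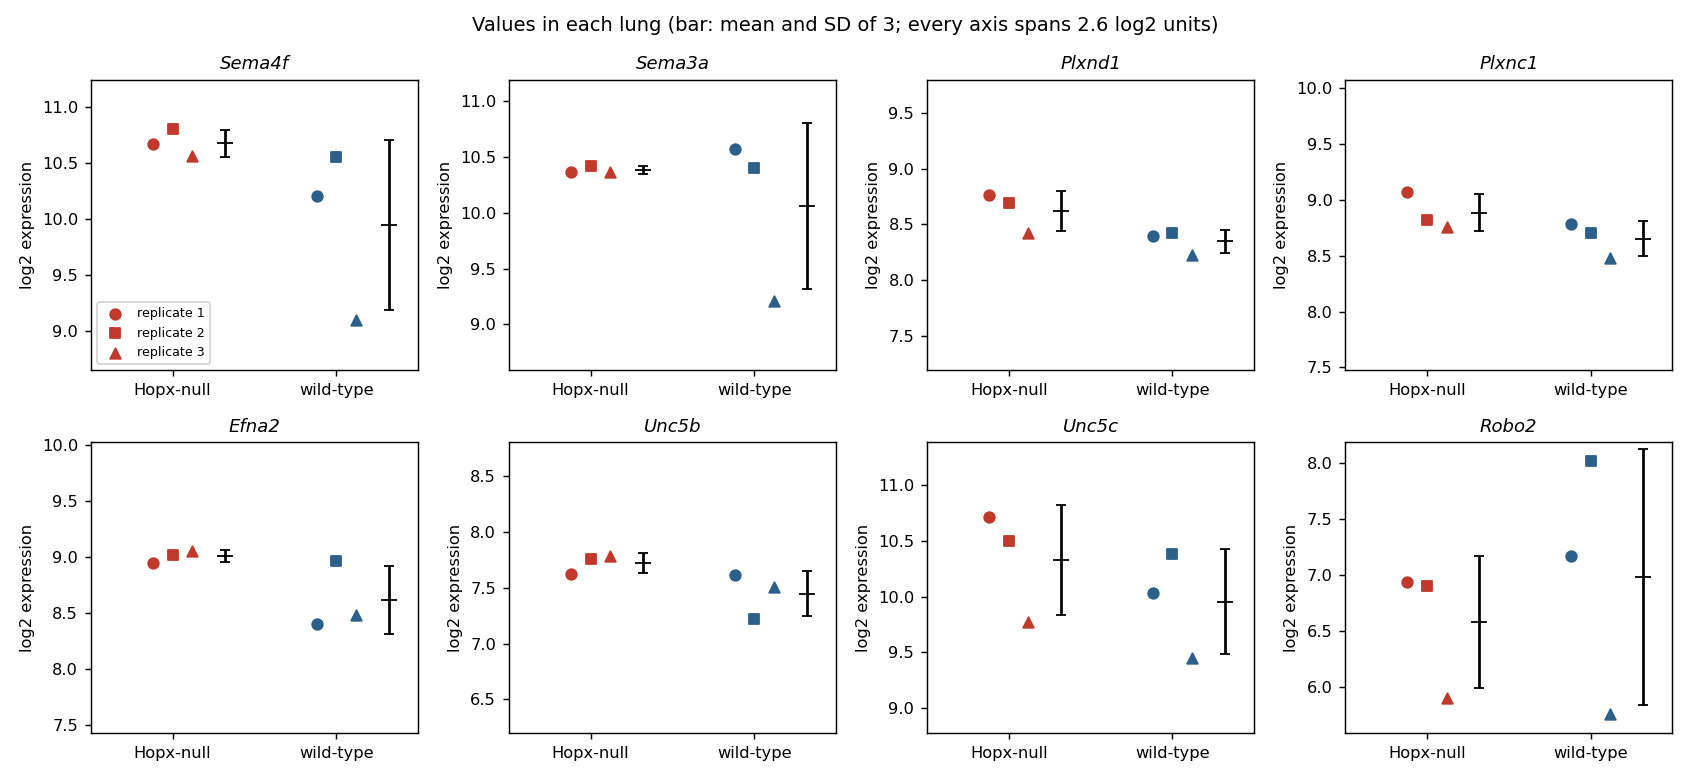
Log2 expression (vertical axes, each spanning 2.6 units) of 8 guidance genes in 3 Hopx-null and 3 wild-type lungs, with the replicate shown by symbol and bars for the mean and SD of each group. Wild-type replicate 3 stands alone for Sema4f (9.09) and Sema3a (9.21), while Robo2 and Unc5c are low in replicate 3 of both genotypes.

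Ephrins had 7 positive and 1 negative difference among 8 genes, with a median of 0.12, and 2 of them were among the 4 genes with an unadjusted p under 0.05. Efna2, an ephrin-A known from the mapping of nerve connections in the brain, read 8.95, 9.02 and 9.05 in Hopx-null and 8.40, 8.96 and 8.48 in wild-type lungs, a difference of 0.40 (SE 0.16, limma with Benjamini-Hochberg, adjusted p = 0.878). The Hopx-null lungs agreed closely, and wild-type replicate 2 lay within their range. A second, dimmer probe set of Efna2, with a mean of 5.73 under the array median, gave 0.06. The mean of both gave 0.23, so the size of the difference depended on the probe set. Efna4 read 5.67, 5.72 and 5.45 against 5.48, 5.21 and 4.91, a difference of 0.41 (SE 0.16, limma with Benjamini-Hochberg, adjusted p = 0.878), at values under the array median and with overlap between Hopx-null replicate 3 and wild-type replicate 1. It was 0.27 without wild-type replicate 3 and 0.13 with the Y-linked covariate.

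Efna5, another ephrin-A of nerve mapping, was the exception in direction. It read 8.97, 9.01 and 9.11 in Hopx-null and 9.28, 9.10 and 9.55 in wild-type lungs, a difference of -0.28 (95% interval -0.59 to 0.03), with wild-type replicate 2 beside Hopx-null replicate 3. Leaving out wild-type replicate 3 gave -0.16. Efna1, a ligand of Epha2 in endothelium and epithelium, read 10.38, 10.35 and 10.12 against 10.21, 10.14 and 10.17, a difference of 0.11 (SE 0.10). Efnb2, the mark of arterial endothelium, read 12.12, 12.17 and 12 against 12.04, 11.96 and 12.03, a difference of 0.09 (95% interval -0.12 to 0.30). Efnb1, an X-linked ephrin, read 9.87, 10.01 and 10.09 against 9.98, 9.92 and 9.98, a difference of 0.03 (SE 0.09). The 3 last named overlapped between genotypes and had small intervals. Efna3 and Efnb3 differed by 0.22 and 0.13.

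Eph receptors had 8 positive and 5 negative differences among 13 genes, with a median of 0.02 that became -0.01 (5 positive, 8 negative) without wild-type replicate 2 and 0.08 if replicate 1 or 3 of that genotype was left out. Epha10, which is thought to lack kinase activity, read 4.29, 4.19 and 4.22 in Hopx-null and 4.78, 4.38 and 4.58 in wild-type lungs, a difference of -0.34 (SE 0.12, limma with Benjamini-Hochberg, adjusted p = 0.878). It was the 1 guidance gene lower in Hopx-null lungs at an unadjusted p under 0.05, and it did not overlap, but its values sat at the lower quartile of the arrays. With the Y-linked covariate its difference was -0.55. Epha2, a receptor of epithelium and vessels, read 7.30, 7.86 and 7.68 against 7.50, 7.08 and 7.98, a difference of 0.09 (SE 0.25). Ephb4, the mark of venous endothelium and partner of Efnb2, read 9.64, 9.62 and 9.80 against 9.68, 9.53 and 9.76, a difference of 0.03 (95% interval -0.21 to 0.27). Replicate 3 was the highest lung of its genotype for Ephb4, and the groups overlapped throughout.

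Epha4, which binds both ephrin types, depended on the probe set. At the chosen one it read 10.28, 10.11 and 10.06 against 10.34, 10.18 and 9.86, a difference of 0.02 (95% interval -0.32 to 0.36). Its 4 other probe sets gave 0.31 to 0.47, and the 5 together averaged to 0.31. At 3 of the 4 other probe sets wild-type replicates 2 and 3 read below all other lungs, for example 6.74 and 6.85 against 7.29 to 7.65, while wild-type replicate 1 read with the Hopx-null lungs. These 2 lungs are those with Y-linked signal and the highest cartilage marker means, and the part of either in the Epha4 values was not tested. Epha7 read 8.83, 8.47 and 8.36 against 8.52, 8.49 and 8.12, a difference of 0.18 (SE 0.17), with positive differences from 0.18 to 0.50 at all 4 probe sets. At the chosen one it was 0.04 with Hopx-null replicate 1 left out, 0.05 with wild-type replicate 3 left out and 0.03 with the Y-linked covariate. Epha5 read 6.77, 6.79 and 7.16 against 6.86, 6.49 and 6.92, a difference of 0.15 (SE 0.16). For Epha5, unlike Epha7, its 4 probe sets were divided, 2 positive and 2 negative. The other Eph receptors differed by -0.13 (Ephb1) to 0.15 (Ephb6).

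Slit and Robo genes had 4 positive and 3 negative differences among 7 genes, with a median of 0.02. It turned to -0.01 with the Y-linked covariate (2 positive, 5 negative), to -0.02 without wild-type replicate 3 and to -0.04 when Hopx-null replicate 1 was left out. Slit2, a secreted repellent of axons, read 12.70, 12.60 and 12.44 in Hopx-null and 12.67, 12.52 and 12.48 in wild-type lungs, a difference of 0.02 (95% interval -0.23 to 0.27). Slit3, its relative with a role in the diaphragm, read 8.70, 8.54 and 8.66 against 8.53, 8.62 and 8.29, a difference of 0.16 (SE 0.11), and 0.06 without wild-type replicate 3. Robo4, the Robo of endothelial cells, read 10.58, 10.58 and 10.67 against 10.61, 10.28 and 10.80, a difference of 0.04 (SE 0.14). In these 3 genes the genotypes overlapped. At the chosen probe set the 95% interval of Slit2 held no change beyond 0.27 in size, and its other probe sets gave differences of 0.14 and 0.25.

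Robo2, a Slit receptor of axons, varied most of all guidance genes. It read 6.94, 6.90 and 5.90 in Hopx-null and 7.17, 8.02 and 5.75 in wild-type lungs, a range of 2.27, with a difference of -0.40 (95% interval -1.78 to 0.98) that became 0.12 when wild-type replicate 2 was left out and -1.01 when wild-type replicate 3 was. It was low in replicate 3 of both genotypes. The means of 5 neural markers, whose part in the Robo2 values was not tested, were 6.47, 6.10 and 6.81 in Hopx-null and 6.25, 7.04 and 7.20 in wild-type lungs.

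Robo1, a widely expressed Slit receptor, had nearly equal values in the wild-type lungs. It read 11.11, 10.99 and 10.84 against 10.99, 11.01 and 11.00, a difference of -0.02 (95% interval -0.25 to 0.21). Robo1 and Sema4d were the only guidance genes whose promoter windows held a CArG box, the binding sequence of serum response factor, a transcription factor that Hopx is known to hold back. Windows of 300 bases around the transcript start, from RefSeq (GRCm38.p6), were listed for 67 of the 79 genes. The box reads the same on both strands, so both were searched, and it was found in 2 of 84 windows of guidance genes, 2.38%, against 1.63% of all 32851 windows. Sema4d, a class 4 semaphorin of immune cells and epithelium that binds plexin B1, read 9.64, 9.78 and 9.53 against 9.79, 9.49 and 9.73, a difference of -0.02 (SE 0.12). The other probe sets of Sema4d gave -0.21 and -0.24, and those of Robo1 gave -0.12 and 0.07. Both windows are shown as the only 2 found with a box, which is in capitals. That of Robo1 lies at chr16:72662899-72663198 on the plus strand with the box beginning 60 bases before the start, and that of Sema4d, 1 of several starts of the gene, lies at chr13:51748761-51749060 on the minus strand with the box beginning 231 bases before the start. A match describes the letters only.
Robo1: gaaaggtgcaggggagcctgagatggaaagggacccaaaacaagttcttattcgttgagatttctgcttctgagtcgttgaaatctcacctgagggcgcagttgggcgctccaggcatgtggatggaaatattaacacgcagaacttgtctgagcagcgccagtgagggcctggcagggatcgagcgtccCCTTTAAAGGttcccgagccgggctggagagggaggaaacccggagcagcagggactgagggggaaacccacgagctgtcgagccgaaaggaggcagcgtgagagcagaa
Sema4d: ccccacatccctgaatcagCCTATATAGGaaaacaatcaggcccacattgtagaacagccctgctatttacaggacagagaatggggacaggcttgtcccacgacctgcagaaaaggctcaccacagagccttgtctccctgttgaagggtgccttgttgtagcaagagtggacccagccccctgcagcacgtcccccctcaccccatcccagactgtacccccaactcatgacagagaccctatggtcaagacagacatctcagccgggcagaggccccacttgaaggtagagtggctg

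Netrins and their receptors had 7 positive and 2 negative differences among 9 genes, with a median of 0.12. The direction turned in 3 alternatives. With the Y-linked covariate 3 were positive and 6 negative (median -0.07), and without wild-type replicate 3, as without Hopx-null replicate 1, 4 were positive and 5 negative (median -0.01). Ntn1, the founding netrin, read 8.53, 8.29 and 8.40 in Hopx-null and 8.40, 8.23 and 7.78 in wild-type lungs, a difference of 0.27 (95% interval -0.13 to 0.68). The difference was 0.09 without wild-type replicate 3, 0.41 with replicate 1 of that genotype left out and 0.0034 with the Y-linked covariate. With its probe sets averaged it was 0.13, the second of them having a mean of 4.05, under the lower quartile. Ntn4, a netrin of basement membranes, read 8.90, 8.74 and 8.88 against 9.16, 8.54 and 8.79, a difference of 0.01 (SE 0.16). Wild-type replicate 3 was low for Ntn1, and Ntn4 spread more in wild-type than in Hopx-null lungs (SD 0.31 against 0.09). Unc5b, the netrin receptor of endothelial cells, read 7.62, 7.76 and 7.78 against 7.61, 7.22 and 7.51, 0.27 higher in Hopx-null lungs (95% interval -0.02 to 0.57, limma with Benjamini-Hochberg, adjusted p = 0.878). Its genotypes did not overlap, but replicate 1 of each was nearly equal, and with Y-linked expression as a covariate the difference was 0.10, and 0.16 without wild-type replicate 2.

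Unc5c, a netrin receptor that repels axons, read 10.71, 10.50 and 9.77 in Hopx-null and 10.03, 10.38 and 9.45 in wild-type lungs, a difference of 0.37 (95% interval -0.37 to 1.12) and 0.48 at its other probe set. Leaving out replicate 3 or 2 of wild-type gave 0.12 or 0.59, and leaving out replicate 1 or 3 of Hopx-null gave 0.18 or 0.65. Like Robo2, it was lowest in replicate 3 of each genotype. Dcc, the netrin receptor that attracts axons, read 6.07, 6.15 and 5.33 against 6.20, 5.96 and 5.85, a difference of -0.15 (SE 0.23) that was 0.11 without Hopx-null replicate 3, the lowest lung. Ntn3 did not overlap between genotypes but read under the lower quartile of the arrays, at 3.76 to 3.83 against 3.91 to 3.99. Ntn5, Unc5a and Unc5d differed by 0.16, 0.08 and 0.12.

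Among the 11 genes taken in by the first letters of their symbols, 4 differences were positive and 7 negative with a median of -0.02, and 6 of these genes read under the lower quartile. The direction turned with the Y-linked covariate, to 7 positive and 4 negative (median 0.10). Without wild-type replicate 3 and with probe sets averaged, 6 were positive and 5 negative (medians 0.03 and 0.02). Leaving out probe sets below the lower quartile left 3 positive and 2 negative (median 0.08). With any other lung left out, more were negative than positive. Unc5cl, an adaptor protein related to Unc5 receptors, read 4.39, 4.06 and 4.32 in Hopx-null and 4.05, 3.95 and 3.78 in wild-type lungs, a difference of 0.33 (SE 0.12, limma with Benjamini-Hochberg, adjusted p = 0.878) near background that was 0.21 with the Y-linked covariate. Unc50, which is unrelated to netrin receptors, read 10.84, 10.80 and 10.68 against 10.98, 10.85 and 10.84, a difference of -0.12 (SE 0.09). Its other probe sets gave -0.06 and 0.25, and the sign changed when its probe sets were averaged. With the Y-linked covariate the difference of Unc50 was -0.21. Slitrk6, a membrane protein of the inner ear and other tissues, ranged over 1.60 between lungs, from 4.60 in wild-type replicate 3 to 6.20 in wild-type replicate 2, and differed by 0.15. Slitrk3 did not overlap, at 4.91 to 5.01 against 5.04 to 5.15, a difference of -0.15.

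Guidance genes varied widely between lungs, also within a genotype. The range over the 6 lungs exceeded 1 at 10 of the 79 genes, 12.7%, against 8.22% of all genes, and its median was 0.53 against 0.40. Robo2, Sema4f, Slitrk6, Sema3a and Unc5c had the widest ranges, in that order, and wild-type replicate 3 was the lowest lung for all 5. It was the lowest of the 6 lungs at 27 of the 79 genes, 34.2%, against 24% of all genes, with 7 of its 27 among the 11 plexins and neuropilins. Wild-type replicate 2 was lowest at 18 genes, 8 of them among the 13 Eph receptors, 22.8% against 14% of all genes. Wild-type lungs spread more than Hopx-null lungs in these genes, with a median SD of 0.201 against 0.130, where all genes had 0.133 and 0.127.

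**Figure D3:**
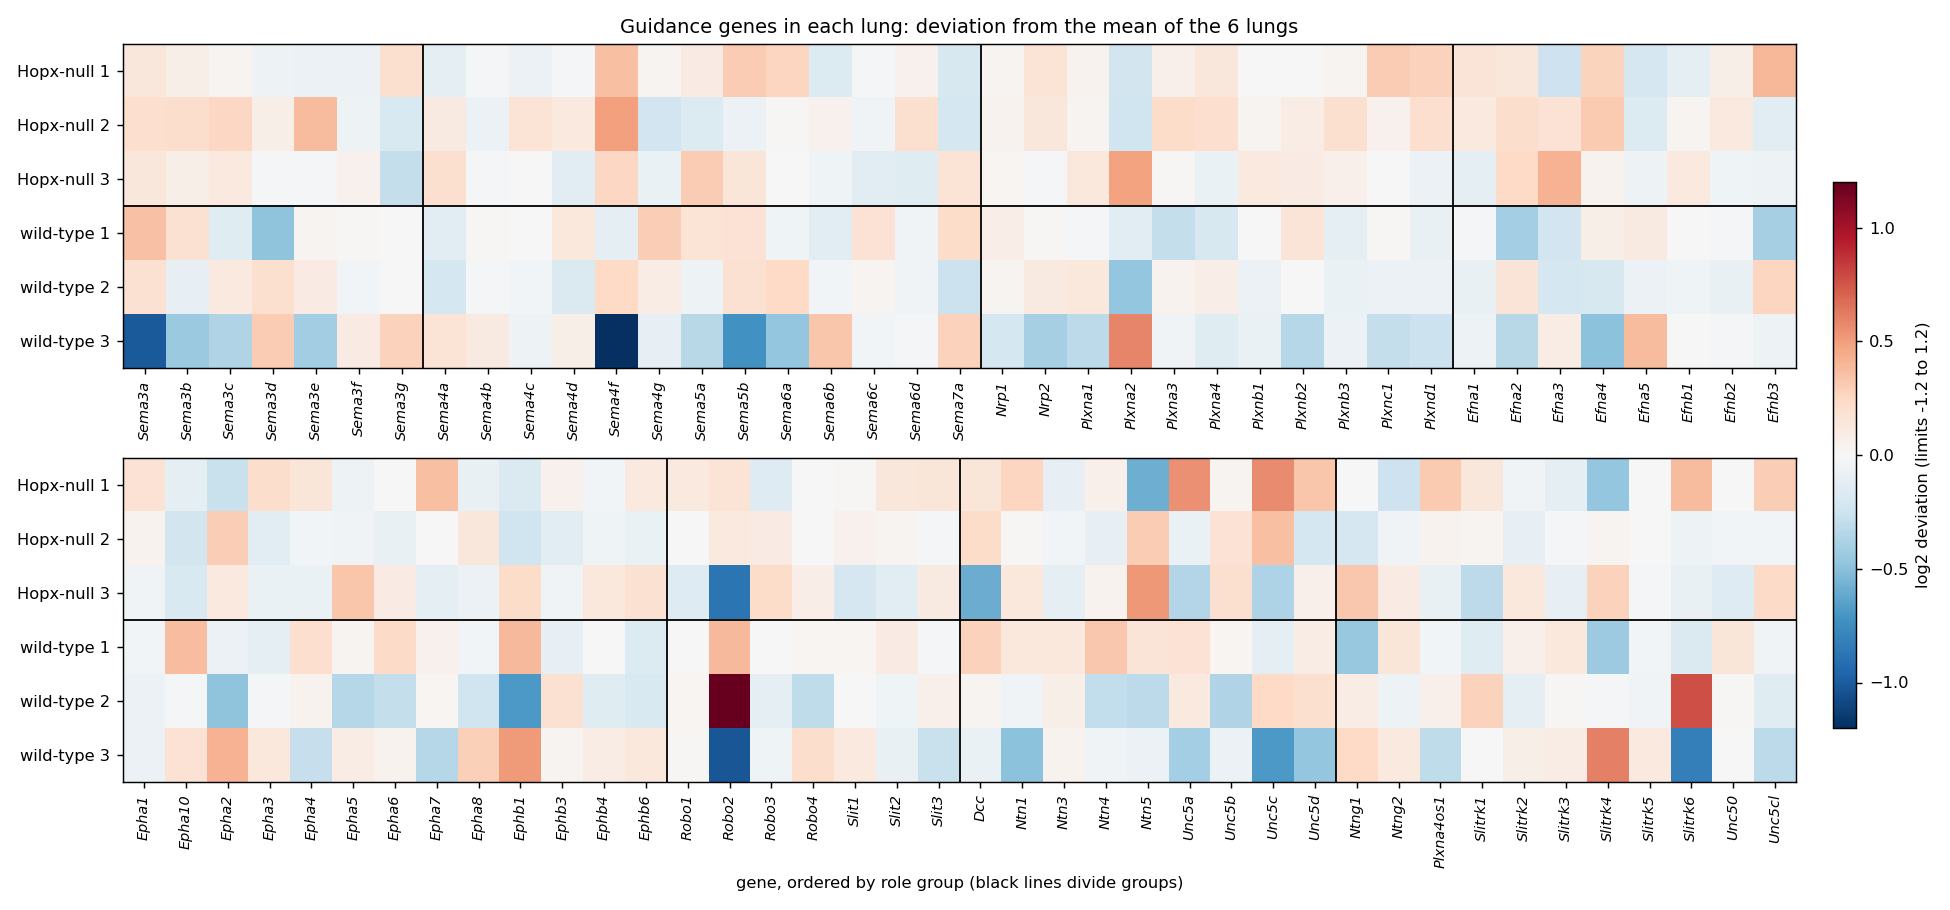
Deviation of each of the 79 genes (columns, grouped by role) in each lung (rows) from its mean over the 6 lungs, on the log2 scale, red above and blue below. The darkest cells belong to wild-type replicate 3 for Sema3a, Sema4f and Robo2 and to wild-type replicate 2 for Robo2.

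Pairs of lungs from different genotypes deviated together in these genes. Over the 79 genes, deviations from the genotype mean correlated at r = 0.57 between Hopx-null replicate 3 and wild-type replicate 3 (0.24 over all genes) and at r = 0.52 between Hopx-null replicate 1 and wild-type replicate 2 (0.20 over all genes). The opposite combinations gave r = -0.58 for Hopx-null replicate 3 with wild-type replicate 2 and r = -0.52 for Hopx-null replicate 1 with wild-type replicate 3. These are descriptions across genes of the same arrays, and deviations within a genotype sum to 0, so the 4 values are not independent. Plxna2, Sema7a and Ephb1 read high and Robo2, Unc5c and Unc5a low in replicate 3 of both genotypes. For Ephb1 the values were 6.43, 6.36 and 6.82 in Hopx-null and 6.99, 5.91 and 7.11 in wild-type lungs, and for Unc5a 6.96, 6.33 and 6.06 and 6.59, 6.53 and 6.01. Hopx-null replicate 3 also had the largest 3' bias of its controls, 1.51 for actin and 1.72 for Gapdh. Wild-type replicate 3, at 1.17, did not stand out for actin, but at 1.42 it was the lowest lung for Gapdh. The rest read 1.46 to 1.60 for Gapdh. The part of RNA quality in this pattern was not tested. The mean of 5 heart markers was also highest in replicate 3 of each genotype, at 9.49, 9.49 and 9.95 in Hopx-null and 8.99, 9.53 and 9.83 in wild-type lungs, and its part was not tested either.

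Probe sets of the same gene gave a further measure of error. Of the 50 guidance genes with several probe sets, 25 had differences of the same sign at every one, 50%, against 50.5% over all genes with several. The share changed with the probe sets kept. It was 17 of 23 guidance genes with only probe sets above the median kept, and 25 of 40 with those below the lower quartile left out. These cuts also change the genes counted and leave some with fewer probe sets, which agree more easily, so the part of signal was not tested. With no probe set left out, 15 of the 25 guidance genes with 2 probe sets agreed in sign, against 3014 of 4695 such genes on the array. The shares over all genes after these cuts are not given here. In 2 genes picked after their values were seen, the lowest lung was the same at 3 of 3 probe sets of Sema3a and 4 of 4 of Plxna2, although the sign of the Plxna2 difference was divided 2 to 2.

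**Figure D4:**
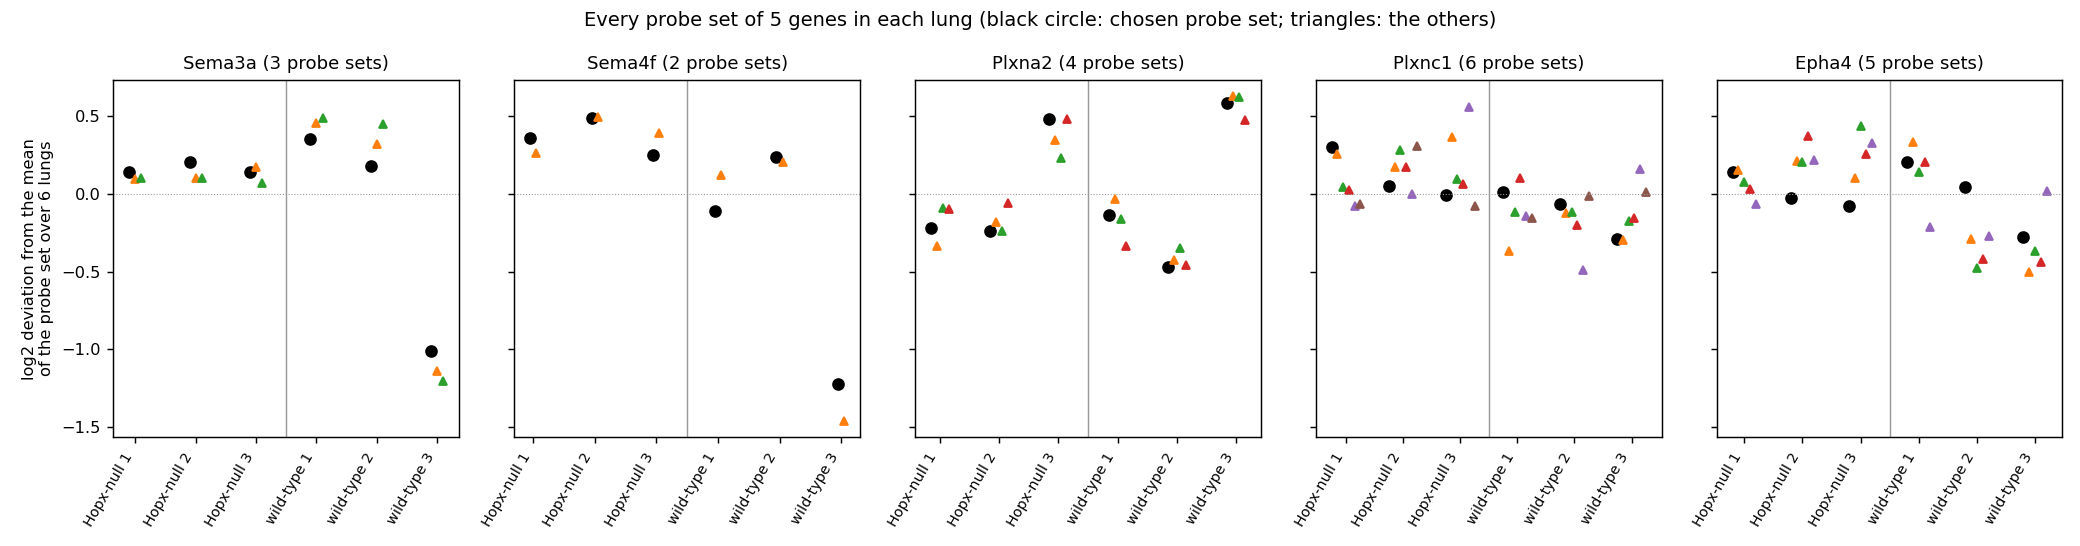
Deviation of every probe set of Sema3a, Sema4f, Plxna2, Plxnc1 and Epha4 from its own mean over the 6 lungs (vertical axis, log2), with 1 column of points per lung, black circles for the chosen probe set and triangles for the others. The 3 probe sets of Sema3a and the 2 of Sema4f fall together in wild-type replicate 3, and all 4 of Plxna2 are high in replicate 3 of both genotypes.

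Partners of the guidance receptors, from a list of 97 co-receptors, intracellular effectors and proteases of which 91 were measured, did not pass either. With limma and Benjamini-Hochberg adjustment 0 of 91 were called, and 5 had an unadjusted p under 0.05, 5.49% beside 4.54% of all genes, of which 4 had positive differences and Rgma a negative one. The median difference was -0.00, with 45 higher and 46 lower. Nrcam, a cell adhesion molecule and partner of neuropilins, read 8.74, 8.52 and 8.99 in Hopx-null and 8.37, 8.42 and 8.18 in wild-type lungs, a difference of 0.43 (SE 0.14) without overlap. Rgma, a ligand of neogenin, read 6.40, 5.98 and 6.09 against 6.51, 6.44 and 6.55, a difference of -0.34 (SE 0.12), also without overlap. Anks1, an adaptor of Eph receptors, differed by 0.37, Tiam1, an activator of Rac, by 0.44 and Unc119, a carrier of lipid-modified proteins, by 0.34. Averaged over all their probe sets, Nrcam differed by 0.19 and Tiam1 by 0.05. Each of these 5 had an adjusted p of 0.878 in limma (Benjamini-Hochberg).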

How the data were processed

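Total RNA of 6 whole lungs, 3 Hopx-null and 3 wild-type, was measured on 1 single-channel Affymetrix array each. The submitters' processing notes name RMA (which corrects background, equalises arrays and summarises probe sets) and Partek 6.6 but not what each was used for. The deposited table was taken to hold log2 expression, since its range and RMA fit that base, and equalised arrays hide a shift of most transcripts in 1 direction. Labelling from a poly(T) primer, per the labels' protocols, favours 3' ends.

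Of 45101 probe sets, 64 controls were left out and 45037 tested, of which the platform annotation names 1 gene for 34945, several for 932 and none for 9160. All 79 member symbols matched RefSeq (GRCm38.p6). The test was limma's lmFit and eBayes (version 3.58.1, R 4.3.3) between genotypes, with Benjamini-Hochberg adjustment over all probe sets and a threshold of 0.05. Errors are SD over 3 lungs, or SE and 95% intervals from that fit. The procedure was also run on simulated data, but how often it finds differences as small as those of the guidance genes is not given here. The number of arrays limits the precision: p from exact two-sided permutation of 6 lungs cannot go below 0.1, and, as no litters are named, p-values measure the spread between these samples.

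The members, lists and roles were chosen with earlier results of these data known, and Unc50 and Plxna4os1 were placed after seeing them. Values in every lung are given for 39 members: those on a list of genes known in lung, vessel or nerve guidance, the 2 with the largest difference in each role group among those above the median, and those with an unadjusted p under 0.05, and for a few others pointed out after their values were seen. Of the partners, those with an unadjusted p under 0.05 are named. Alternatives covered normalization, dim probe sets, variance models, array weights, replicate number, Y-linked expression (from 3 of 4 listed genes), averaged probe sets and left-out lungs. The Y-linked covariate in effect leaves wild-type replicate 1 to stand alone for its genotype.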

Additional observations from a re-analysis of the deposited data

How the results depend on the processing

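In all alternatives run for them, 0 of the guidance genes passed. The same held for the partner genes, which were not recounted with averaged probe sets or with related genes left out. The Hopx s_at probe set, refitted under changed normalization, dim probe sets, variance model, weights, block, covariate and left-out lungs, passed in each with a negative difference. The median difference of the guidance genes stayed positive, from 0.04 to 0.11. It moved to 0.04 with Y-linked expression as a covariate and to 0.04 with all probe sets of a gene averaged, and ranged from 0.05 to 0.10 when 1 lung was left out, lowest without wild-type replicate 3. The labels do not say whether the replicate numbers pair the lungs. Deviations of same-numbered lungs over all probe sets correlated at -0.096, -0.12 and 0.18, and those of other combinations at -0.15 to 0.24. Such values cannot settle whether lungs shared a litter or a processing day. With the replicate block, the count of probe sets called was 1, and the Hopx a_at probe set kept -1.91 but no longer passed (limma, Benjamini-Hochberg, adjusted p = 0.299). With the Y-linked covariate the count was also 1, with -2.02 at that probe set (adjusted p = 0.387). Leaving out 1 lung gave counts from 1 to 23, highest without wild-type replicate 1 and 12 without Hopx-null replicate 1, and a_at differences from -1.99 to -1.84. The cause of these moves was not tested. Of the 44 named genes, 26 kept their sign in all alternatives and 18 did not, among them 8 without wild-type replicate 3 and 9 with the Y-linked covariate. Intervals of about 0.2 or more to either side limit what 3 lungs per genotype can show.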
